A study of Homo sapiens with 6 samples.

Results

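Chromosome 19 carries a dense collection of zinc finger genes in clusters, and the protein-coding genes there whose symbol is ZNF followed by a number are described here in their order along the chromosome. With earlier results of these data known, they were chosen by name, type and position. The RefSeq annotation of GRCh38.p14 lists 240 of them. The count files hold 238 of these among 30727 genes (ZNF66 and ZNF723 were not matched), and 216 passed the filter on low counts among 15190 genes tested. Expression was measured by sequencing poly(A) RNA from PANC-1, an established line of human pancreatic ductal carcinoma cells, in 3 libraries labelled with siRNA knockdown of SUV420H2 and 3 libraries labelled control. SUV420H2, now named KMT5C, is a histone methyltransferase of heterochromatin that acts on H4K20. What the control siRNA was, which sequences were used, how long after transfection RNA was taken and whether libraries came from separate cultures is not stated in the labels. The p-values therefore measure the spread between these libraries, which may be technical.

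Most of the proteins encoded by these genes belong to the KRAB zinc finger family. Tandem C2H2 fingers read DNA sequence, often within transposable elements, and the KRAB domain at the other end binds TRIM28, a scaffold that brings in the H3K9 methyltransferase SETDB1 and HP1 proteins to form heterochromatin. The family grew by tandem duplication, which left it in clusters, and the bodies of many of these genes are themselves known to carry H3K9me3 and HP1 proteins. HP1 is also known to recruit the SUV420H enzymes to heterochromatin.

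The knockdown libraries held 27007534 to 38022772 counted reads and the control libraries 20863594 to 25931995. The chromosome 19 ZNF genes took 0.298% to 0.303% of the reads in knockdown libraries and 0.273% to 0.286% in control libraries. KMT5C was lower in every knockdown library than in any control, at 6.03, 6.11 and 5.86 CPM (reads per 1000000 counted, scaled by TMM) in knockdown against 9.55, 7.23 and 12.7 CPM in control. It fell by 0.72 on the log2 scale (SE 0.163, edgeR quasi-likelihood adjusted p = 0.00227). By exact permutation of the 6 CPM values, two-sided, p was 0.1, which is as low as 3 against 3 libraries can reach. Control replicate 3 stood apart from the other controls on the second principal component, which held 5.53% of the variance, and without it KMT5C had a log2 fold change of −0.50 and was still called. The labels carry no replicate numbers, so libraries were numbered in accession order only to name them. The labels' extraction text speaks of brain cells: none of the 4 astrocyte markers passed the filter, and their summed level was 0.235 to 0.442 CPM in knockdown and 0.0392 to 0.120 CPM in control. Of 6 neuronal markers 5 were tested, and all 6 summed to 93.9 to 99.3 CPM in knockdown against 175 to 220 CPM in control. TUBB3 made up most of that, with 92.3, 92.5 and 87.5 CPM in knockdown against 181, 168 and 213 CPM in control, while each of the other 5 stayed under 5 CPM in every library. The summed epithelial and ductal markers were 6201 to 6424 CPM in knockdown against 2589 to 3106 CPM in control. KRT8 averaged 2590 CPM in knockdown against 893 in control, and KRT18 2343 against 791. Of the 7 markers 6 were called higher, while KRT19 was called lower, at a mean of 734 against 915 CPM. The neuronal and epithelial sums differed between the groups without overlap, and their part in the results below was not tested. In bulk RNA, fewer cells expressing a gene and less RNA per cell cannot be told apart. Of all 15190 tested genes, 67.3% were called at an adjusted p under 0.05, 33.1% higher and 34.2% lower in knockdown.

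Among the chromosome 19 ZNF genes, more were called higher than lower in knockdown. Of the 216 tested, 74 (34.3%) were higher in knockdown, 28 (13.0%) were lower and 114 were not called, so 47.2% were called in either direction, against 67.3% of all tested genes. Their median log2 fold change was 0.12, against −0.01 over all tested genes, with a range of −1.15 to 1.56. Changes were small: 81.9% of tested members stayed within 0.5 log2 units of no change, against 63.3% of all tested genes. A called change of at least 2-fold was seen in 10 members upward and 1 downward, while 8.01% and 6.01% of all tested genes met the same limits. Knockdown and control libraries did not overlap in 81 members that were higher and 33 that were lower; over all tested genes 35% and 36.3% were so separated, or 71.3% in either direction. Without control replicate 3, 66 of the 74 rises and 27 of the 28 falls were still called. The calls lost were those of ZNF69, ZNF44, ZNF563, ZNF382, ZNF875, ZNF221, ZNF460 and ZNF329 among the rises and ZNF285 among the falls. That fit called 76 members higher and 41 lower.

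The ZNF genes of other chromosomes served for comparison. Of 206 tested, 57 (27.7%) were higher in knockdown and 74 (35.9%) lower, with a median log2 fold change of −0.03. The other protein-coding genes of chromosome 19 had 316 of 790 (40%) higher, 213 (27.0%) lower and a median of 0.09. Those within the bounds of the ZNF clusters had 43 of 74 (58.1%) higher, 13 (17.6%) lower and a median of 0.28. The ZNF genes in clusters had 73 of 208 (35.1%) higher, 23 (11.1%) lower and a median of 0.13. These sets are not matched by cluster. By the cluster numbers given below, the 74 lay mostly in clusters 2 (32), 7 (21) and 9 (13). Cluster 4 held 1 of them, and clusters 1, 5 and 6 held none. Members in which a KRAB motif was found in the longest reading frame numbered 180 among those tested, with 67 higher, 21 lower and a median of 0.12. The 36 tested members without the motif had 7 higher, 7 lower and a median of 0.10. Members were expressed at low levels, with a median of 2.22 RPKM (reads scaled for depth and gene length) in control, against 6.81 RPKM over all tested genes. Across the 216 members the Spearman correlation of control RPKM with log2 fold change was −0.34, and that of the number of C2H2 fingers with log2 fold change was 0.04. Both are descriptions across genes that share libraries, and the same correlation with RPKM over all tested genes was −0.17.

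Split wherever a gap of at least 1000000 bases separated one member from the next, the genes formed 9 clusters of 5 or more. The other 9 members lay in shorter runs and are called isolated here. Some of them, such as ZNF574 and ZNF526, lie closer together than that gap. Numbered from the tip of the short arm, cluster 1 ran from ZNF554 to ZNF77, cluster 2 from ZNF557 to ZNF846, cluster 3 from ZNF653 to ZNF791 and cluster 4 from ZNF101 to ZNF254. Cluster 5 ran from ZNF302 to ZNF792, cluster 6 from ZNF565 to ZNF573, cluster 7 from ZNF575 to ZNF296, cluster 8 from ZNF175 to ZNF331 and cluster 9 from ZNF628 to ZNF446. The highest share of calls was in cluster 4. There 20 of 26 tested members (76.9%) were higher in knockdown and none was lower, with a median log2 fold change of 0.60. Outside cluster 4, 54 of 190 tested members (28.4%) were higher, 28 (14.7%) were lower and the median was 0.09.

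**Figure D1:**
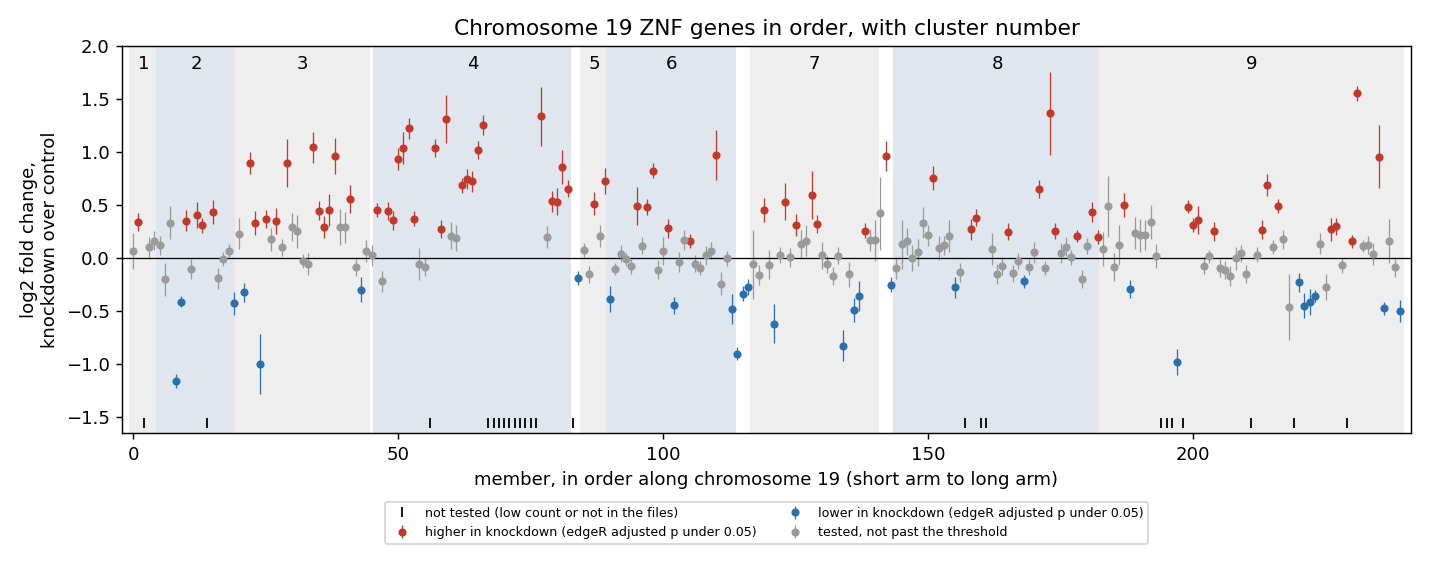
Log2 fold change (knockdown over control) of each chromosome 19 ZNF gene, in order along the chromosome, with bars of 1 SE and shading for the 9 clusters; ticks at the bottom mark members not tested. Cluster 4 holds 20 members called higher and none called lower, and the tallest single point, ZNF274 at 1.56, lies in cluster 9.

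**Figure D2:**
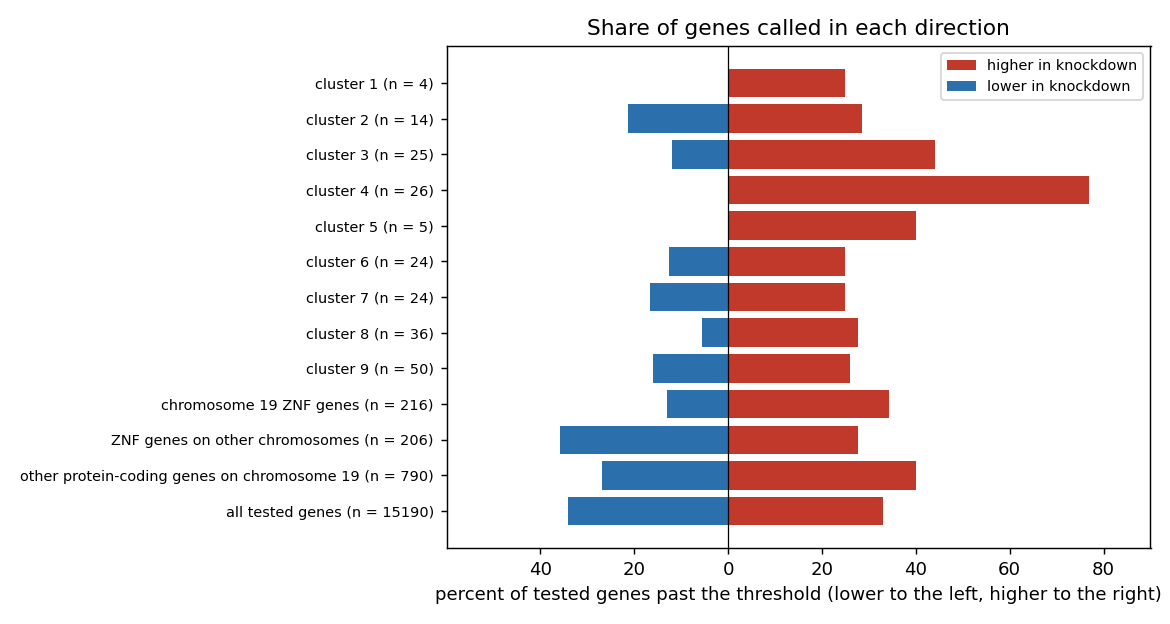
Percent of tested genes called higher (right) and lower (left) in knockdown, for each cluster, for all chromosome 19 ZNF genes and for comparison sets, with the number tested in parentheses. Cluster 4 has 76.9% of its tested members higher, against 33.1% of all tested genes.

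Cluster 4 spans chr19:19668153-24129968 of GRCh38.p14, 37 members beside the centromere in a region known for expansion in primates. Summed over the cluster, the members stood at 299, 326 and 310 CPM in the knockdown libraries against 219, 216 and 189 CPM in the control libraries. The means were 312 ± 13.5 CPM in knockdown and 208 ± 16.7 CPM in control (SD, n = 3 each). The groups did not overlap, control replicate 3 being the lowest, and the ratio of the means was 1.5. The next highest ratio was 1.15, in cluster 1. Single members separated in the same way: in 21 of the 26 every knockdown library lay above every control. Over all tested genes 35% were so separated upward. Of the 10 members with a called rise of at least 2-fold, 7 belonged to the cluster, while 8.01% of all tested genes had such a rise. Tested members had 184 to 4620 reads over the 6 libraries and 0.0772 to 3.73 RPKM in control, below the median of all tested genes.

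**Figure D3:**
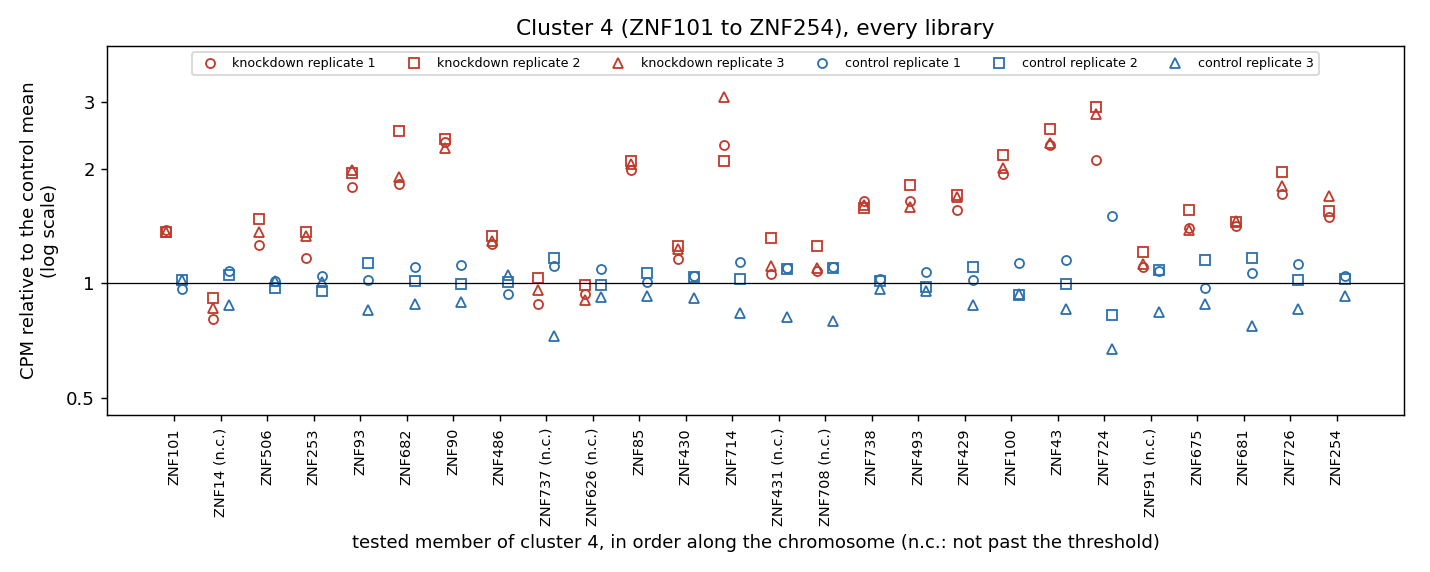
CPM of each tested member of cluster 4 in every library, relative to the mean of the 3 controls (log scale), knockdown left of control. In 21 of 26 members all knockdown libraries lie above all controls, against 35% of all tested genes. The 6 members marked n.c. did not pass the threshold.

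**Figure D4:**
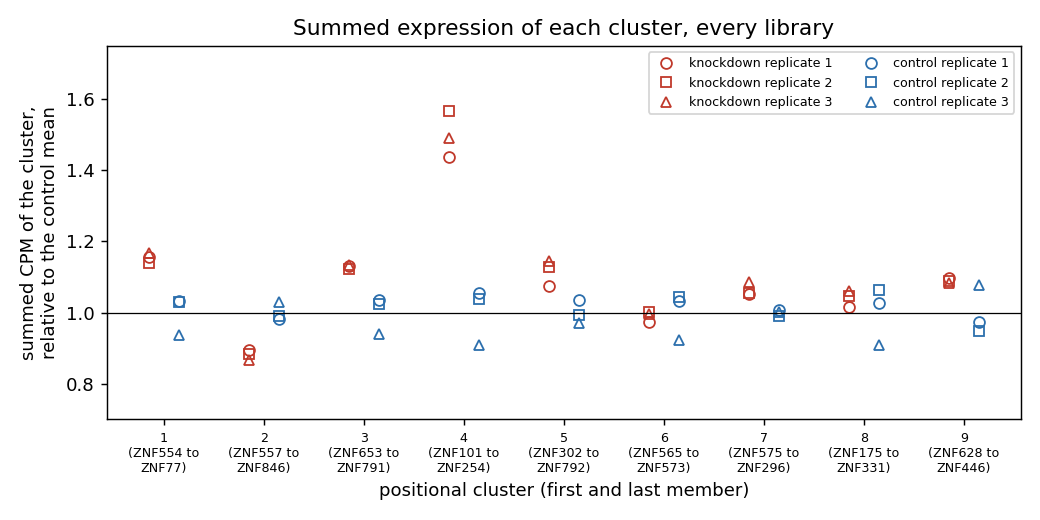
Summed CPM of all members of each cluster in every library, relative to the control mean. Cluster 4 lies highest with a ratio of 1.5, cluster 2 is below its controls with a ratio of 0.882, and clusters 6 and 8 overlap.

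ZNF43, a KRAB protein with 19 fingers, had the smallest p of the cluster. It had 35.6, 39.3 and 36.1 CPM in knockdown against 17.8, 15.4 and 13.3 CPM in control. Every knockdown library was far above every control, with a log2 fold change of 1.26 (SE 0.0938, edgeR adjusted p = 4.96e-07). ZNF90 had 10.0, 10.2 and 9.68 CPM in knockdown against 4.75, 4.24 and 3.80 CPM in control. Its libraries were likewise far apart, with a log2 fold change of 1.22 (SE 0.0982, edgeR adjusted p = 8.73e-07). ZNF724 and ZNF714 rose on fewer reads. ZNF724 had 1.23, 1.69 and 1.63 CPM in knockdown against 0.879, 0.482 and 0.392 CPM in control, from 142 reads in knockdown and 42 in control. Control replicate 1 was above the other controls (log2 fold change 1.34, SE 0.279, edgeR adjusted p = 0.00131). ZNF714 had 1.62, 1.47 and 2.16 CPM in knockdown against 0.799, 0.723 and 0.588 CPM in control, a log2 fold change of 1.31 (SE 0.224, edgeR adjusted p = 0.00032).

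ZNF93 and ZNF91 are known to repress LINE-1 and SVA retrotransposons in primate cells. ZNF93 had 11.5, 12.6 and 12.8 CPM in knockdown against 6.59, 7.28 and 5.49 CPM in control. Its groups were well apart (log2 fold change 0.93, SE 0.104, edgeR adjusted p = 1.25e-05). ZNF91 had 14, 15.4 and 14.2 CPM in knockdown against 13.7, 13.7 and 10.6 CPM in control. The groups did not overlap but lay close, and with a log2 fold change of 0.20 (SE 0.100, edgeR adjusted p = 0.0993) ZNF91 did not pass the threshold. Without control replicate 2 it did, at 0.26, and in the other 14 of 15 alternatives it did not. Without control replicate 3 its log2 fold change was 0.08 (edgeR adjusted p = 0.354).

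The other rises in cluster 4 were ZNF682 and ZNF85 at 1.04 and 1.03 on the log2 scale, ZNF100 at 1.02, ZNF726 at 0.86, ZNF493 at 0.74, ZNF429 at 0.73, ZNF738 at 0.69 and ZNF254 at 0.66. Smaller log2 fold changes were called in ZNF675 (0.54), ZNF681 (0.53), ZNF101 (0.45), ZNF506 (0.44), ZNF486 (0.37), ZNF253 (0.36) and ZNF430 (0.28). Besides ZNF91, the members not called were ZNF431 (0.21), ZNF708 (0.19), ZNF737 (−0.06), ZNF626 (−0.09) and ZNF14 (−0.22). These members lie among those that rose, not at one end. Without control replicate 3 all 20 rises were still called, and ZNF14 (−0.32) and ZNF737 (−0.26) were called lower. A run of 9 members between ZNF43 and ZNF724 fell below the count filter, with 61 reads in knockdown and 40 in control over all 9. The run is ZNF208, ZNF257, ZNF676, ZNF729, ZNF98, ZNF492, ZNF99, ZNF728 and ZNF730, and no change in it was detectable at this depth.

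Unique alignment drops reads that close paralogs share. By transcript sequence, no tested member of cluster 4 shared more than 9.82% of its 50-base words with other genes, while among all members 19 shared more than 10%. Adjacent members were also compared. Within clusters, 127 of 199 adjacent pairs of tested members had the same sign (63.8%). Of 46 pairs with both members called, 32 were both higher, 5 both lower and 9 opposite, so 80.4% had the same direction. The other protein-coding genes of the chromosome had 365 such pairs, of which 206 (56.4%) had the same direction. Over all adjacent pairs of those genes, called or not, 53.2% had the same sign. Their pairs were taken along the whole chromosome at any distance, while ZNF pairs were kept within clusters. Calls also leaned further to the higher side among ZNF genes in clusters (73 higher, 23 lower) than among those genes (316 higher, 213 lower). How much of the difference in shared direction follows from that lean or from spacing was not tested. Cluster 4 supplied 15 of the 32 ZNF pairs that were both higher.

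Promoters were compared because members that rose lie side by side. The RefSeq promoter table holds 210 of the 240 members and 29 of the 37 in cluster 4. The 250 bases before the start given there were used, and that start can lie inside the annotated gene span. Pairwise identity within cluster 4 had a median of 76.2% (range 46.9% to 92.0%, 406 pairs), against 50.2% to 55.2% in each of the other clusters. The 10-letter word found most often in the cluster's windows was TCCAATCAGG, which holds the CCAAT box core. On either strand it was present in 26 of 29 windows of cluster 4, 14 of 24 of cluster 3 and 3 of 5 of cluster 1. No window of the other clusters held it, and among all 27305 promoters it was found in 0.385%. A second word, ATCTTCTGTCACTC, was found on either strand in 16 of the 27305 promoters, all of them in cluster 4. The shorter CCAAT alone, which every TCCAATCAGG includes, was in 29 of 29 windows of cluster 4 and 33% of all promoters. It was also in 5 of 5 windows of cluster 1, 22 of 24 of cluster 3 and 50.5% of all members. The remaining clusters held it in 8.7% (cluster 6) to 55.8% (cluster 9) of windows. Both longer words were picked from the cluster's own windows, so their frequency there is a description.

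The windows of ZNF43, ZNF90 and ZNF93, which rose, and of ZNF91 and ZNF626, which were not called, show how alike these promoters are. They are printed 5′ to 3′ along the gene's strand, ending just before the start used, with both words in capitals (RefSeq, GRCh38.p14). For ZNF43 that start lies inside the annotated gene span, chr19:21804946-21852065, and not at its outer end. The positions are chr19:21836183-21836432 on the minus strand for ZNF43, chr19:20077750-20077999 on the plus strand for ZNF90, chr19:19900696-19900945 on the plus strand for ZNF93, chr19:23395472-23395721 on the minus strand for ZNF91 and chr19:20661572-20661821 on the minus strand for ZNF626.
ZNF43: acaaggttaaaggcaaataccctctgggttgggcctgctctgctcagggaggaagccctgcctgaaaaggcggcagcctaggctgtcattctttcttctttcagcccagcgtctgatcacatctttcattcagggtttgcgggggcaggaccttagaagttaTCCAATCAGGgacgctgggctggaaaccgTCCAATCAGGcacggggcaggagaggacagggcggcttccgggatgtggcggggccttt
ZNF90: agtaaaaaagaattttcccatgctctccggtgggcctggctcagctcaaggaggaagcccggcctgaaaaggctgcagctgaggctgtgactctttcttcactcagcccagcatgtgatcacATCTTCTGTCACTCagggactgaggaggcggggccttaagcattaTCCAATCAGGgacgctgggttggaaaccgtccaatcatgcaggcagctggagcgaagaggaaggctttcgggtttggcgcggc
ZNF93: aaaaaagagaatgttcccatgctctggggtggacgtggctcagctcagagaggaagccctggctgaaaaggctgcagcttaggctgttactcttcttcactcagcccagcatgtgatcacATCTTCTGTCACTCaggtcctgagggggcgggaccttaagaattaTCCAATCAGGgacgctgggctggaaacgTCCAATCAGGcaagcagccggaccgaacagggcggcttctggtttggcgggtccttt
ZNF91: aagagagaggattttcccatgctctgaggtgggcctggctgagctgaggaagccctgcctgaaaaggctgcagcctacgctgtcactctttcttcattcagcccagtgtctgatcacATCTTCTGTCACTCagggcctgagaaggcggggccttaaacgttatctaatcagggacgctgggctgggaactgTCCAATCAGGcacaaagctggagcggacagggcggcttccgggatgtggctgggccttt
ZNF626: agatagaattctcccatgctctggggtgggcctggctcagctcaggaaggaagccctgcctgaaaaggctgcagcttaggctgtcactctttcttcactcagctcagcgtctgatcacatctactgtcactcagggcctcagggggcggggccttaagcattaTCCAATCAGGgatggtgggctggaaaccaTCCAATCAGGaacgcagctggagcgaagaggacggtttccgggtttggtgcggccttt

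Members that rose and members that were not called both held the words. TCCAATCAGG was present in 16 of the 17 called higher with a window and in 6 of 6 not called, and ATCTTCTGTCACTC in 9 of 17 and 3 of 6. Outside cluster 4, 16 tested members had TCCAATCAGG, of which 6 were higher and 3 lower. Of all 190 tested members outside cluster 4, 28.4% were higher and 14.7% lower, and of all tested genes 33.1% and 34.2%. Windows of cluster 4 held a median of 8 CpG dinucleotides, against 17 in the other members and 11 in all promoters. A matching word describes the sequence and does not show that a factor binds there.

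The largest change of any member lay far away, in cluster 9 near the end of the long arm. ZNF274 has a KRAB domain and 5 fingers, and is known to bind the last exons of other ZNF genes and to bring SETDB1 and H3K9 methylation to them. It had 29.2, 27.8 and 28.5 CPM in knockdown against 9.59, 10.4 and 9.21 CPM in control. The replicates were tight and the groups far apart, with a log2 fold change of 1.56 (SE 0.0699, edgeR adjusted p = 1.06e-08). Shares over all tested genes were 33.1% higher and 34.2% lower. In cluster 9, 13 of 50 tested members (26%) were higher and 8 (16%) lower, with a median of 0.10. Other rises included ZNF837 (0.96, with groups that overlapped), ZNF530 (0.69), ZNF264 (0.49) and ZNF211 (0.49). ZNF71 was its strongest fall, at 5.43, 7.33 and 5.79 CPM in knockdown against 11, 11.7 and 13.5 CPM in control. The groups did not overlap (log2 fold change −0.98, SE 0.121, edgeR adjusted p = 2.86e-05). Consecutive falls among tested members were ZNF776 (−0.23), ZNF586 (−0.45), ZNF552 (−0.41) and ZNF587 (−0.36). ZNF552 and ZNF587 share 18.4% and 20.6% of their 50-base words with other genes, so their separate values are uncertain. Next in RPKM after ZNF146 of cluster 6 came ZNF787 (41.5 RPKM in control) and ZNF544 (18.2 RPKM). ZNF544 had 71.2, 71.5 and 71.6 CPM in knockdown against 66.2, 70.5 and 61.5 CPM in control, and at a log2 fold change of 0.11 it was called only without control replicate 2 among the libraries left out. The count of cluster 9 members called higher, 13, was 8 without knockdown replicate 1 and 8 without control replicate 1.

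KMT5C itself lies 128496 bases before the first member of cluster 9, and 9 members lie within 1000000 bases of it. None of the 9 has a KRAB motif. Of these, 2 passed the threshold, while 67.3% of all tested genes did. ZNF784 was higher, at 11.2, 10.3 and 10.6 CPM in knockdown against 7.51, 6.27 and 8.90 CPM in control (log2 fold change 0.50, SE 0.113, edgeR adjusted p = 0.00234). ZNF581 was lower, at 19.5, 17.3 and 18.8 CPM in knockdown against 22.3, 20.5 and 25.1 CPM in control (log2 fold change −0.29, SE 0.0838, edgeR adjusted p = 0.00989). That call was lost without knockdown replicate 2. The other 7 had log2 fold changes of −0.08 (ZNF524) to 0.49 (ZNF579), and in each the groups overlapped. Control replicate 3, which also had the highest KMT5C, was the highest control in all 9 and above all 5 other libraries in 8 of them.

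ZNF579 showed this most, with 38.2, 36.0 and 32.7 CPM in knockdown against 17.9, 15.1 and 42.5 CPM in control. Without control replicate 3, 7 of the 9 were called higher and 1 lower, while 73.1% of all tested genes were called in that fit, 36.4% higher and 36.7% lower. ZNF579 then had a log2 fold change of 1.10, ZNF787 0.49, ZNF580 0.47, ZNF444 0.47, ZNF865 0.46 and ZNF628 0.29, each past the threshold. ZNF524 turned to 0.10 without being called. The direction of ZNF628 and ZNF865 also turned when control replicate 2 was left out. What sets control replicate 3 apart was not tested.

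**Figure D5:**
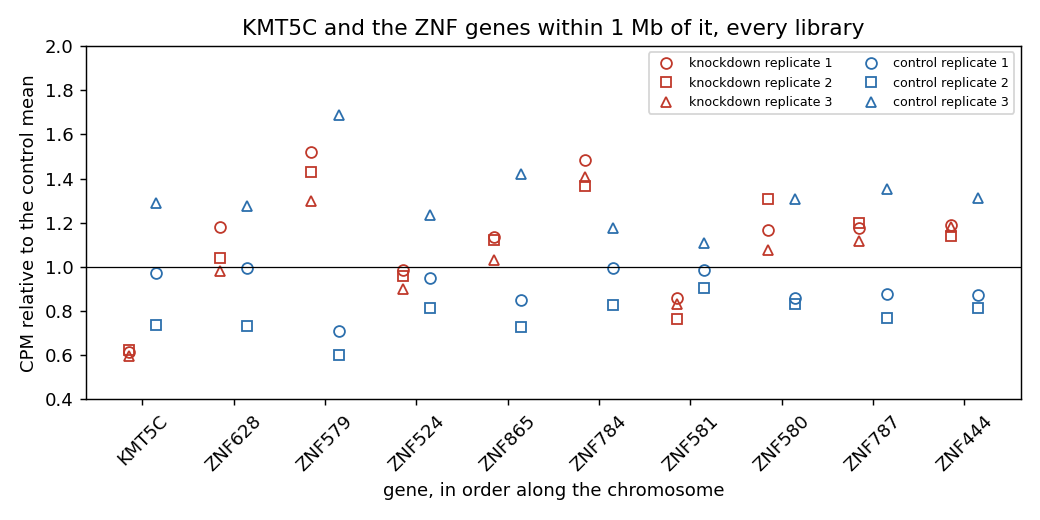
CPM of KMT5C and the 9 ZNF genes within 1000000 bases of it in every library, relative to the mean of the 3 controls, knockdown left of control. Control replicate 3 is the highest control for KMT5C and for all 9 neighbours.

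Cluster 3, also on the short arm, had 11 of 25 tested members (44%) higher, 3 (12%) lower and a median log2 fold change of 0.29. Without knockdown replicate 3 the higher count was 7. Shares over all tested genes were 33.1% higher and 34.2% lower. ZNF823 led by p, with 9.19, 9.31 and 9.02 CPM in knockdown against 5.63, 4.87 and 4.27 CPM in control. The groups were well apart, at a log2 fold change of 0.90 (SE 0.104, edgeR adjusted p = 1.73e-05). ZNF625 (1.04), ZNF442 (0.96), ZNF763 (0.90), ZNF709 (0.56), ZNF136 (0.45) and ZNF440 (0.37) were also higher. ZNF625 shares a readthrough transcript with ZNF20 (−0.06, not called) in the annotation. ZNF627 fell, with 13.0, 12.3 and 13.5 CPM in knockdown against 18.2, 15.2 and 15.1 CPM in control (log2 fold change −0.32, edgeR adjusted p = 0.00709). ZNF491 had a log2 fold change of −0.996 on low counts and was lower as well, as was ZNF490 (−0.30).

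Cluster 2 had the largest fall of any member. ZNF558, a KRAB protein with 9 fingers, stood at 17.2, 15.4 and 15.8 CPM in knockdown against 36.0, 37.2 and 34.9 CPM in control. Every knockdown library was far below every control, with a log2 fold change of −1.15 (SE 0.0645, edgeR adjusted p = 5.27e-08). ZNF317 (−0.41) and ZNF846 (−0.43) were lower too, and ZNF426 (0.43), ZNF177 (0.41), ZNF699 (0.35) and ZNF266 (0.31) were higher. The cluster's median was 0.03, and its summed level was 192, 190 and 186 CPM in knockdown against 210, 212 and 221 CPM in control. Cluster 1 had 1 of 4 tested members called, ZNF555, at 0.34. Cluster 5 had 2 of 5, ZNF792 at 0.73 and ZNF599 at 0.51, with none lower. Of all tested genes, 67.3% were called.

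Clusters 6, 7 and 8 lie on the long arm. Of all tested genes, 33.1% were higher and 34.2% lower. Cluster 6 had 6 of 24 tested members (25%) higher and 3 (12.5%) lower, with a median of 0.01 and summed levels that overlapped. Its ZNF146, made almost wholly of fingers and lacking a KRAB domain, had the highest RPKM of all members, 68.3 in control. ZNF146 had 246, 262 and 253 CPM in knockdown against 283, 285 and 249 CPM in control, which overlapped, and was not called (log2 fold change −0.10, edgeR adjusted p = 0.126). Without control replicate 3 it was called lower at −0.17, and the lower count of cluster 6 was 6. ZNF850 was higher, at 16.9, 16.3 and 17.4 CPM in knockdown against 9.55, 9.40 and 9.68 CPM in control. The groups were far apart, with a log2 fold change of 0.82 (SE 0.0703, edgeR adjusted p = 1.43e-06). It overlaps ZNF567 on the opposite strand, which was also higher at 0.48, and whether counting used strand is not stated. ZNF382, a KRAB repressor described as a tumour suppressor, was higher at 0.49, from 130 reads in knockdown and 69 in control. Its call was lost in 7 of 14 alternatives: without knockdown replicate 2 or any 1 of the controls, with the DESeq2 Wald test, with no low-count filter and thinned to equal depth. The log2 fold change stayed between 0.41 and 0.55 in all 14. ZNF568, whose mouse ortholog represses a placental Igf2 transcript, was lower at −0.44.

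In cluster 7, 6 of 24 tested members (25%) were higher, 4 (16.7%) were lower and the median was 0.03. The higher count was 3 without knockdown replicate 2. Shares over all tested genes were 33.1% higher and 34.2% lower. ZNF428 had 30.1, 31.4 and 30.5 CPM in knockdown against 22.7, 17.4 and 26.6 CPM in control, a log2 fold change of 0.46 (SE 0.116, edgeR adjusted p = 0.00472). ZNF224, a repressor known as a partner of WT1, was higher at 0.32. ZNF233 (−0.83), ZNF404 (−0.62), ZNF112 (−0.49) and ZNF285 (−0.36, not called without control replicate 3) were lower. Cluster 8 had 10 of 36 (27.8%) higher, 2 (5.56%) lower and a median of 0.10. Its lower count was 7 without control replicate 3, 0 without knockdown replicate 1, and 1 without knockdown replicate 2, control replicate 1 or control replicate 2. ZNF816 rose with 10.3, 10.0 and 10.3 CPM in knockdown against 6.91, 6.55 and 6.04 CPM in control (log2 fold change 0.65, SE 0.0840, edgeR adjusted p = 3.84e-05). ZNF432 was higher at 0.76, and ZNF331, an imprinted gene, at 0.20, a call lost without knockdown replicate 1 or 3. ZNF468 was lower at −0.22, a call lost without knockdown replicate 1.

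Of the 8 isolated members tested, 5 (62.5%) were lower, 1 (12.5%) was higher and the median log2 fold change was −0.22. Of all tested genes, 34.2% were lower and 33.1% higher. ZNF546, a KRAB protein with 22 fingers, had 35.4, 38.3 and 39.3 CPM in knockdown against 72.5, 72.7 and 65.4 CPM in control. All knockdown libraries lay far below all controls (log2 fold change −0.90, SE 0.0616, edgeR adjusted p = 2.51e-07). ZNF473, a finger protein of histone mRNA processing, was lower at −0.25, as were ZNF574 (−0.34), ZNF526 (−0.27) and ZNF507 (−0.19). ZNF114 was higher at 0.96. ZNF536, a repressor of neuronal differentiation, had 6 reads in knockdown and 3 in control and was not tested.

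TRIM28, the partner of the KRAB domain, lies on chromosome 19 beyond cluster 9. It had 919, 860 and 868 CPM in knockdown against 669, 663 and 812 CPM in control. The groups did not overlap (log2 fold change 0.30, SE 0.0714, edgeR adjusted p = 0.00293). That call was lost once the trend on GC content was removed. SETDB1 had a log2 fold change of 0.07 and was not called (edgeR adjusted p = 0.245). Of 36 tested genes listed for KRAB repression and heterochromatin, 13 (36.1%) were higher, 12 (33.3%) lower and 11 not called, with a median of 0.06. These shares were close to the 33.1% and 34.2% of all tested genes. The DNA methyltransferase DNMT3B (1.34) and the remodeller HELLS (0.76) were higher, while UHRF1 (−0.75), which guides maintenance methylation, and TASOR (−0.62), a subunit of the HUSH silencing complex, were lower. Among 12 tested zinc finger genes of chromosome 19 with other names, 2 (16.7%) were higher and 4 (33.3%) lower. Of all tested genes, 33.1% were higher and 34.2% lower, so the share of falls was near that of all genes and the share of rises was smaller. The set was taken by symbol, whatever the type of finger. The rises were ZSCAN5A (1.07) and ZFP36 (0.69). ZNF780B (−0.81), the next listed zinc finger gene after ZNF546 along the chromosome, led the falls.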

How the data were processed

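Poly(A) RNA from 6 PANC-1 libraries was analysed, grouped by the siRNA label. Per the submitters' processing notes, the authors aligned reads with GSNAP to GRCh38. Per the file headers, the deposited count is the number of reads aligned uniquely to each gene, and the deposited RPKM carries the authors' size-factor adjustment. Versions, annotation and strand setting: not given in the sources used here. Numeric gene IDs were named with RefSeq GRCh38.p14 (27814 matched, 2913 did not and stayed in the tests). Counts were filtered with filterByExpr (minimum count 10, minimum total 15), scaled by TMM and tested with edgeR 4.0.16 (glmQLFit, glmQLFTest, two-sided) in R 4.3.3, with Benjamini-Hochberg adjustment over all 15190 tested genes. CPM are scaled by TMM. RPKM was used only to compare levels between genes. The common biological coefficient of variation was 0.0237 within knockdown and 0.0781 within control. The code was tested on simulated data.

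Fingers, KRAB motifs and shared words came from the transcripts of GENCODE 29, using the longest reading frame. Alternatives were DESeq2 1.42.0 size factors and Wald test, plain library size, no filter on low counts, a floor of 1 on mean log2 CPM, limma-voom (limma 3.58.1), removal of a GC or length trend, and leaving out each library. Thinning to 20863594 reads and leaving out members that share over 10% of their 50-base words were added after seeing the data.

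Named genes were KMT5C, TRIM28 and SETDB1; the 5 largest called rises and falls whose groups did not overlap and whose mean log2 CPM was 0 or more; the higher and lower member of smallest p in each cluster; the 3 members of highest RPKM; members within 1000000 bases of KMT5C; and ZNF274, ZNF91, ZNF93, ZNF331, ZNF224, ZNF382, ZNF146 and ZNF536 for published roles. Other members named were chosen after their values were seen. The members and lists were chosen with earlier results of these data known. No set test was run, and lists are described by counts and medians. Of the other marker lists, 5 of 6 neuronal markers were tested (2 higher, 2 lower), 1 of 6 for microglia and leukocytes (higher), 1 of 6 for fibroblasts and endothelium (higher) and 7 of 7 for epithelium and duct (6 higher, 1 lower).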

Additional observations from a re-analysis of the deposited data

How the results depend on the processing

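No paired analysis was possible because the labels give no replicate numbers, and the numbers used here only name the libraries. Over the 16 alternatives, the chromosome 19 ZNF genes had 59 to 76 called higher (74 as reported), 21 to 41 called lower (28 as reported) and a median log2 fold change of 0.07 to 0.14. Cluster 4 had 17 to 21 members called higher, with a median of 0.45 to 0.67. KMT5C kept its direction and call in 15 of 15 alternatives, at −0.88 to −0.50. With the DESeq2 Wald test, cluster 3 had 7 members higher and 1 lower and cluster 7 had 3 higher. With a minimum mean log2 CPM of 1, cluster 3 had 1 lower and cluster 7 had 2 lower; fewer members were tested there. Thinned to equal depth, cluster 4 had 1 lower and cluster 8 had 1 lower. With no low-count filter the median of cluster 4 was 0.446 over more members, and without members that share over 10% of their words the median of cluster 5 was 0.513, over fewer members. The cause of the other shifts was not tested.

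Leaving out 1 library at a time gave 7 to 11 higher and 2 to 3 lower in cluster 3, 0 to 2 lower in cluster 4, a median of 0.148 to 0.312 in cluster 5, 2 to 6 lower in cluster 6, 3 to 6 higher in cluster 7, 0 to 7 lower in cluster 8 and 8 to 17 higher in cluster 9. Over all genes it gave 4533 to 5612 higher and 4651 to 5665 lower. The log2 fold change of ZNF628 was −0.121 with the GC trend removed and −0.0789 to 0.294 with a library left out. That of ZNF865 was −0.0933 and −0.0459 to 0.463 in the same settings, and that of ZNF524 was −0.198 to 0.0962 with a library left out. With no low-count filter ZNF787, ZNF579, ZNF580 and ZNF444 were called higher, and these 4 were also called without control replicate 3. A gap of 500000 bases gave 10 clusters holding 228 members, and a gap of 2000000 bases gave 6 holding 236, against 9 holding 231. Depth limits the 22 members below the filter, each with at most 12 reads in a library.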
